A study of Mus musculus with 2 samples.

Results

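The genes described here are 32 genes of cholesterol and fatty acid synthesis, out of 18193 genes named on the array. They were taken as a list of names, 18 sterol enzymes, 6 sterol regulators and 8 fatty acid enzymes, and the rule used no measured value, although the list was drawn up with earlier results of these data known. Of the 32, 31 had a probe set naming a single gene, all 31 passed the filter on dim signals, and Acat2 was without such a probe set. RNA came from the mouse embryonic stem cell line E14 at passage 9, grown on gelatin with 15% serum and 1000 U/ml of leukemia inhibitory factor. A lentivirus delivered either a non-targeting shRNA to the control cells (shCtrl) or 1 shRNA against Sin3a to the depleted cells (shSin3a-1); Sin3a is the scaffold of a histone deacetylase complex. Both were selected with puromycin. With 1 array in each group there were no replicates, and no test was possible. In such bulk RNA, fewer cells of a type and less RNA per cell cannot be told apart.

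Cells build cholesterol from acetyl-CoA through mevalonate and squalene, and fatty acids from the same acetyl-CoA through malonyl-CoA. Transcription factors of the SREBP family switch on both branches. When membranes hold enough sterol, INSIG proteins keep the SREBPs and their escort SCAP in the endoplasmic reticulum. When sterol is low, SCAP carries the SREBPs to the Golgi, where proteases free the active factor. SREBP sites commonly lie next to boxes bound by NF-Y and Sp1, which act with it.

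The promoters of 25 of the 32 genes were in the RefSeq promoter table (GRCm38.p6), as windows of 300 bases with 250 before the annotated start. Exact matches on both strands were counted for the classical sterol regulatory element, its looser form TCACNCCAC, which lies within it, the NF-Y box CCAAT and the Sp1 box GGGCGG. The NF-Y box was common among the sterol enzymes, of which 14 of 15 held it. Of 8029 genes that passed the dim-signal filter and had a window, 43.7% did. Of the 5 regulators 4 held it, and of the 5 fatty acid enzymes 2. Counted over windows, 21 of 33 of these genes' windows held it, against 38.2% for genes passing the filter and 37.4% of all 32851 windows. The Sp1 box was in 14 of 15 sterol enzymes, 5 of 5 regulators and 2 of 5 fatty acid enzymes, but also in 72.1% of the genes passing the filter. By windows, it was in 25 of 33, against 65.2% for genes passing the filter and 35.7% of the whole table. The classical sterol element was in none of the 33 windows and in 0.0913% of all windows, and the looser form was in 1 window, that of Hmgcs1, against 1.24%. A match describes letters in a window and is neither a bound site nor a cause, and no match says only that these letters are not there.

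The 250 bases before the start are shown for 6 genes on whose values the results turn. Hmgcs1 (chr13:119690101-119690350, plus strand) holds the single match to the looser sterol element. Msmo1 (chr8:64733579-64733828, minus strand) and Hsd17b7 (chr1:169969206-169969455, minus strand) are the sterol enzymes with the highest differences. Tm7sf2 (chr19:6067851-6068100, minus strand) and Dhcr7 (chr7:143822917-143823166, plus strand, the most upstream of its 3 windows) have the lowest. Fasn (chr11:120824548-120824797, minus strand) stands for the fatty acid branch. Each is written 5′ to 3′ on the gene's strand, with matches to any of the motifs in capitals. A box on the opposite strand reads ATTGG or CCGCCC.
Hmgcs1: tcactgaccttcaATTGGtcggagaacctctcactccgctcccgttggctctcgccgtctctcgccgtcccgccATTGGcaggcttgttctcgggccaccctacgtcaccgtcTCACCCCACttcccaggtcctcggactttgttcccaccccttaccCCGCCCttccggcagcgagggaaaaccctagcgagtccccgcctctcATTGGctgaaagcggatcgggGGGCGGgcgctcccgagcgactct
Msmo1: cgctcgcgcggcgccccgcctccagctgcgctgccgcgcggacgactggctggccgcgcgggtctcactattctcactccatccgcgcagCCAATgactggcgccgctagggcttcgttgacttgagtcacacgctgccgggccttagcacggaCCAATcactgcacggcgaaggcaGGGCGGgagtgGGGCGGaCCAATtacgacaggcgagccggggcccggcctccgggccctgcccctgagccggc
Hsd17b7: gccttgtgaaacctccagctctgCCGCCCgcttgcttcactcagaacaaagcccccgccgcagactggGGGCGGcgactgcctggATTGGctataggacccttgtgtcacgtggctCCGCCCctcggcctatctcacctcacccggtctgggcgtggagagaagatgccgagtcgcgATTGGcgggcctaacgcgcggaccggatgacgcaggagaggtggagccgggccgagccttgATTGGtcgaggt
Tm7sf2: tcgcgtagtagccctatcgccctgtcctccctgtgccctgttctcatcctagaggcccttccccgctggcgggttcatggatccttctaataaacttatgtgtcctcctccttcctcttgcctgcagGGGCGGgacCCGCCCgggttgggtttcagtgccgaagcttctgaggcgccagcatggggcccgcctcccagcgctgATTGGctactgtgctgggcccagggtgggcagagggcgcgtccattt
Dhcr7: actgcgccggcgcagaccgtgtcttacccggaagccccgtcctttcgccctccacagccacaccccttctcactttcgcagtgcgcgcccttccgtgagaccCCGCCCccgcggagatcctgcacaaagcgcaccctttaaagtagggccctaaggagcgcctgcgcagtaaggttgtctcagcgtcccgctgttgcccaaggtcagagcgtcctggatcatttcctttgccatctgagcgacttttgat
Fasn: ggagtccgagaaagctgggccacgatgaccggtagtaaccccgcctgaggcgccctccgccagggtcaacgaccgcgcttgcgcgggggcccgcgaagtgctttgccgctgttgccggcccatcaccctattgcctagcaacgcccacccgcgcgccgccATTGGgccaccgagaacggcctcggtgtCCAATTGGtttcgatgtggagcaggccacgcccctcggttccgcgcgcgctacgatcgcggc
In these stretches Hmgcs1, Msmo1, Hsd17b7 and Fasn each held 3 NF-Y boxes, of which 2 in Fasn overlap. Tm7sf2 held 1 and this window of Dhcr7 none, although another window of Dhcr7 held 2. Sc5d, another of the higher enzymes, held 1 in its window, which is not shown. Whether the number of boxes goes with the differences was not tested. The NF-Y boxes of Hmgcs1 lay on both sides of its looser sterol element, which began 137 bases before the start.

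**Figure D1:**
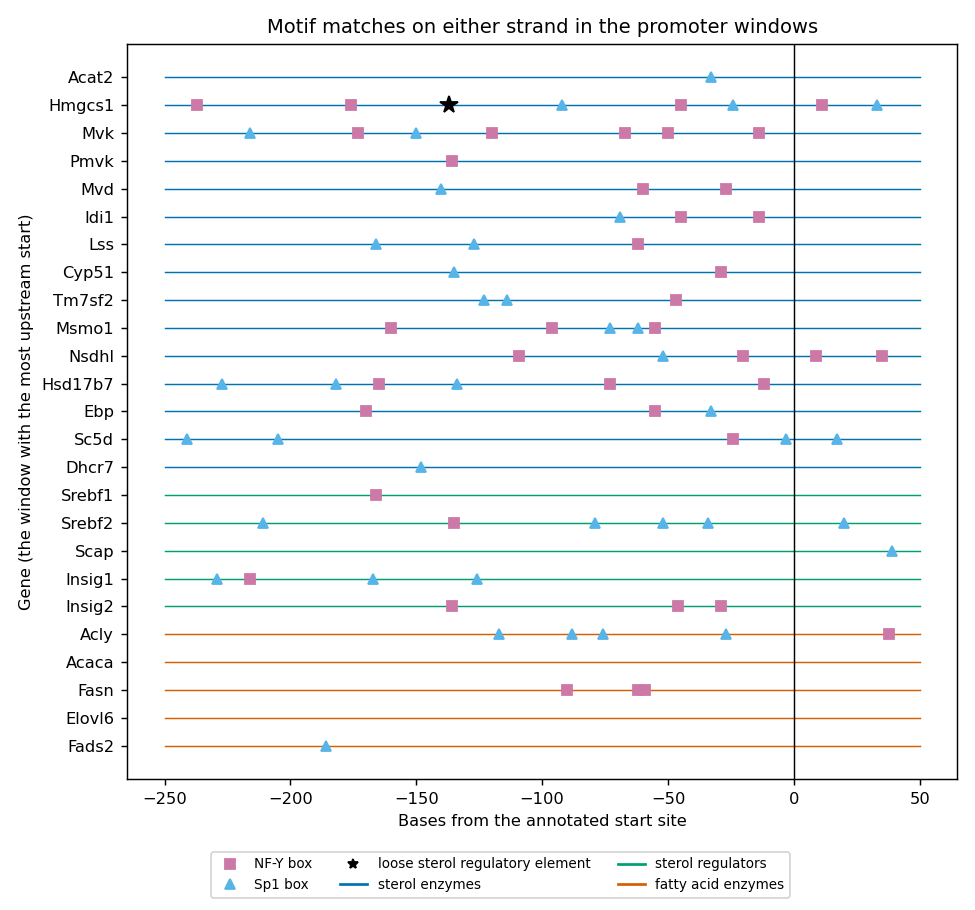
Positions of exact motif matches on either strand, in bases from the annotated start site, in the most upstream window of each of the 25 genes in the promoter table. Lines are coloured by branch; NF-Y boxes (squares) recur along the sterol enzymes, and the star marks the single looser sterol element, in Hmgcs1.

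On the arrays the targeted gene was lower and the cells kept stem cell markers. The Sin3a signal was 3072 on the shCtrl array and 534 on the shSin3a-1 array (log2 difference -2.52, or 17.4% of control), and 3 of 3 probe sets were lower. All 7 stem cell markers passed the filter, with signals from 4735 for Esrrb to 22440 for Dppa5a, and none differed by 0.32 on the log2 scale in its brightest probe set. The other kept probe sets of Esrrb were at -0.72 and 1.07. Of 8 fibroblast markers 6 did not pass the filter, Col1a1, Col3a1, Dcn, Lum and Postn among them at the signal floor on both arrays. The 2 that passed were Pdgfrb with 203 and 89.0 (-1.19) and Thy1 with 161 and 104 (-0.63). Both passed through the shCtrl array alone (cutoffs 131 in shCtrl and 126 in shSin3a-1), so the filter itself favoured a lower value. Of 6 primitive endoderm markers 4 passed the filter, Gata6, Sox17 and Pdgfra through the shSin3a-1 array alone. The summed signal of all 6 was 473 and 917. Of 6 trophectoderm markers 3 passed the filter, all lower, and the summed signal of all 6 was 2681 and 1338. Cdx2 did not pass, with 8.61 on the shCtrl array, under the floor, and 70.0 on the shSin3a-1 array. Elf5 and Gata3 were at the floor on both arrays. The part of these lineage markers in the differences below was not tested.

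The sterol and fatty acid branches leaned in opposite directions by their brightest probe sets, by small amounts. The 17 measured sterol enzymes had a median log2 difference (shSin3a-1 minus shCtrl, signals as deposited) of 0.15, and 11 of 17 lay above 0. The 8 fatty acid enzymes had a median of -0.19, and 2 of 8 lay above 0. Over all 9782 genes that passed the filter the median was -0.03, and 45.8% lay above 0. The gap between the branch medians was 0.34, and it was 0.10 when each gene was given the mean of its probe sets. With that mean the sterol enzymes had a median of 0.10, and 9 of 16 lay above 0. Over single kept probe sets, 21 of 32 were higher for the sterol enzymes and 9 of 17 for the fatty acid enzymes, against 50.3% of all kept probe sets. The lower side of the fatty acid branch was thus not seen in that count. Centring each array on its median adds 0.11 to every difference and so leaves the gap as it is.

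None of the 31 genes reached 2-fold in either direction, where 4.49% of all genes passing the filter did. At 1.5-fold none was higher, against 7.13% of all genes, and 2 were lower, Tm7sf2 and Dhcr7, against 9.46%. The share past 1.5-fold was thus 6.45% for these genes and 16.6% for all. Most of the 31 had bright probe sets, which vary less: 12 lay above the 90th percentile of signal, where 5.38% of 3030 genes passed 1.5-fold, and 17 between the 75th and 90th, where 15.1% of 4062 did. Kept probe sets of 1 gene differed among themselves with an SD of 0.41 (log2, over 4413 genes). They share the same RNA and arrays, so this spread holds no variation between cultures and does not replace replicates. Of the 31 genes 7 lay further from 0 than 0.41, or 22.6%, against 29.6% of all genes. These were Tm7sf2, Dhcr7, Msmo1, Hsd17b7, Sc5d, Insig2 and Stard4. Among probe sets at or above the 75th percentile of signal the SD was 0.31 (2576 genes), and Scd2 and Fads2 also lay beyond that, making 9 of 31, against 41.4% of all genes.

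**Figure D2:**
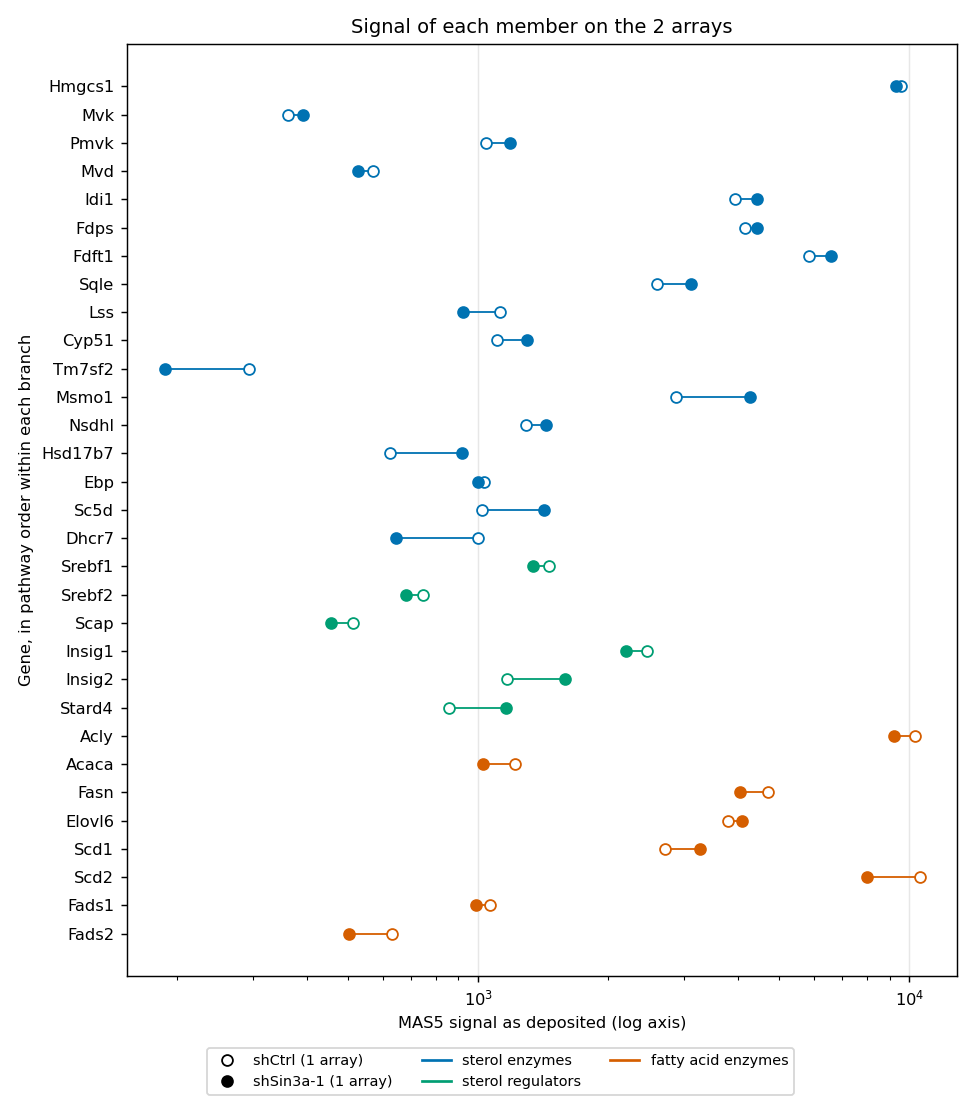
MAS5 signal (log axis, as deposited) of each gene's brightest probe set in shCtrl (open) and shSin3a-1 (filled), 1 array each, coloured by branch. Only the 2 points of a row can be compared, since probe sets of different genes bind differently; most pairs lie close together, and the widest gaps are at Tm7sf2, Dhcr7, Msmo1 and Hsd17b7.

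Enzymes of the early sterol pathway differed little and mostly upward. Hmgcs1, which makes the HMG-CoA that the pathway reduces to mevalonate, gave 9586 with shCtrl and 9304 with shSin3a-1 (log2 difference -0.04, turning to 0.07 with median centring). Its 5 probe sets ran from -0.14 to 0.63. The sign for Hmgcs1 was thus not settled, being above 0 also with quantile scaling and in the mean of its probe sets. The mevalonate kinase Mvk had 361 and 393 (0.12), with a second probe set at 0.75. Pmvk, the next kinase, had 1041 and 1187 (0.19). Both kinases were on the higher side in every probe set measured.

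The decarboxylase Mvd had signals of 571 and 526 (-0.12). Idi1, which isomerizes the product to make both building blocks of isoprenoids, had 3940 and 4435 (0.17), but its other probe set was at -0.25. Fdps, which joins these blocks into farnesyl diphosphate, had 4149 and 4441 (0.10). Farnesyl diphosphate is the branch point from which squalene is made. There the squalene synthase Fdft1 had 5853 and 6570 (0.17), and its mean over all probe sets, dim ones included, was -0.17. Sqle, the oxygenase that forms squalene epoxide and a rate-limiting enzyme of the pathway, had 2596 and 3109 (0.26). The 8 measured enzymes up to squalene epoxide had a median of 0.14, ran from -0.12 to 0.26, and 6 of 8 lay above 0. None reached a log2 difference of 0.32, where 39.5% of all genes passing the filter did.

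Enzymes after squalene epoxide spread more widely, in both directions. The 9 genes ran from -0.65 to 0.57, with a median of 0.15; their median absolute difference was 0.48, against 0.14 for the earlier steps and 0.25 for all genes passing the filter. At 0.32 or more on the log2 scale 3 were higher, where 17.0% of all genes were, and 2 lower, where 22.5% were. The later enzymes were also dimmer. Hmgcs1, Idi1, Fdps, Fdft1 and Sqle lay above the 90th percentile of signal, but of the later ones Msmo1 alone. In that band 5.38% of all genes passed 1.5-fold, against 15.1% and 31.5% in the dimmer bands. The part of brightness in the wider spread was not tested.

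The 3 higher enzymes act in demethylation or desaturation of the sterol ring. Msmo1, which oxidizes methyl groups on the sterol ring, had signals of 2871 and 4267 (0.57, 1.49-fold), the highest difference of all 31 genes and just short of 1.5-fold. Its second probe set was dim, with 108 and 84.3, and did not pass the filter. The mean of both was 0.11. Hsd17b7, the ketoreductase of the same demethylation, had 625 and 916 (0.55, 1.47-fold). Of its 4 probe sets 3 were higher, up to 0.77, and 1 was lower at -0.54. Sc5d, a desaturase near the end of the pathway, had 1020 and 1421 (0.48). A second probe set of Sc5d was at -0.01, so these genes were higher in their brightest probe set without support from every other one. Cyp51, the cytochrome P450 that demethylates lanosterol, had 1106 and 1297 (0.23), with its other kept probe set at 0.54. Nsdhl, the decarboxylating dehydrogenase between Msmo1 and Hsd17b7, had 1291 and 1433 (0.15).

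Both genes past 1.5-fold encode reductases of double bonds in the sterol ring. Tm7sf2, which reduces the double bond that Cyp51 leaves in the ring, had signals of 294 and 187 (-0.65, 1.57-fold lower). Dhcr7, which reduces 7-dehydrocholesterol to cholesterol in the last step of that route, had 999 and 646 (-0.63, 1.55-fold lower). Each has a single probe set on the array, so neither has a second measurement, and with median centring both fell inside 1.5-fold (-0.54 and -0.52). Tm7sf2 was dim: in its band, the 60th to 75th percentile, 19.9% of genes were lower by 1.5-fold, against 7.80% in the band of Dhcr7. Lbr, a nuclear envelope protein with the same reductase activity as Tm7sf2, was chosen after its value was seen; it had 10881 and 11344 (0.06). Lss, which cyclizes squalene epoxide to lanosterol, had 1121 and 924 (-0.28), with other probe sets at 0.20 and -0.15. The isomerase Ebp had 1031 and 999 (-0.05, turning to 0.06 with median centring).

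**Figure D3:**
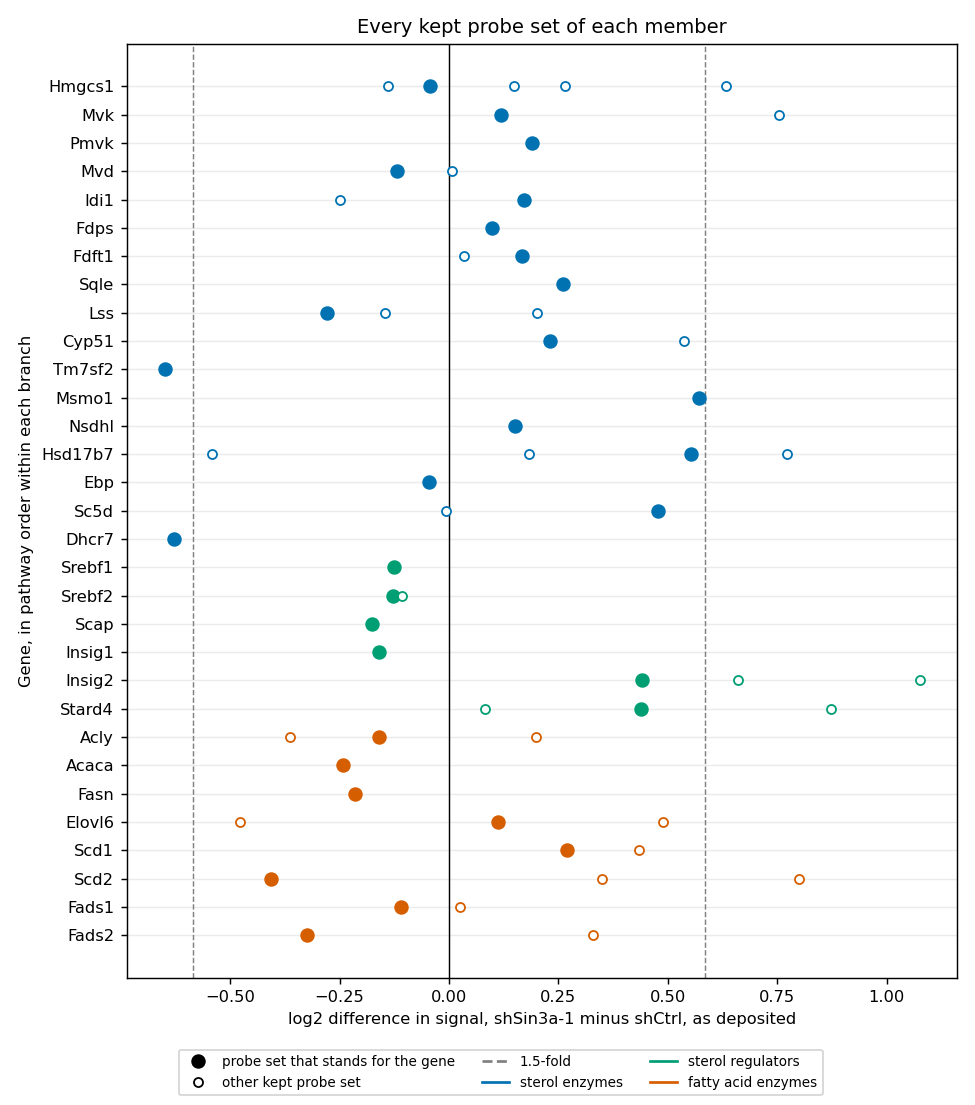
Log2 difference (shSin3a-1 minus shCtrl, as deposited) of every kept probe set, with 1 row per gene; filled points are the probe sets that stand for the gene and dashed lines mark 1.5-fold. All probe sets of Insig2, Stard4, Cyp51 and Scd1 lie above 0, while those of Hsd17b7, Elovl6, Scd2 and Fads2 lie on both sides.

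The group of sterol regulators, which includes the cholesterol carrier Stard4, separated into 4 slightly lower and 2 higher genes. Srebf2, which encodes the SREBP that mainly drives sterol genes, had signals of 743 and 679 (-0.13), and its second probe set was at -0.11. Srebf1, whose product mainly drives fatty acid genes, had 1461 and 1339 (-0.13). Scap, the sterol sensor and escort, had 514 and 455 (-0.18). These 3 genes and Insig1 were all within 0.32 of 0 on the log2 scale. Their signs did not turn in the alternatives run, but filters and floors could not turn them. Srebf1 and Insig1 have 1 probe set each, so only another scaling could turn those. With median centring the values came close to 0: -0.017 for Srebf1, -0.020 for Srebf2, -0.067 for Scap and -0.051 for Insig1.

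The paired INSIG genes went different ways. Insig1, itself a classical SREBP target, had signals of 2460 and 2202 (-0.16). Insig2, whose product does the same retention but is not driven by SREBP in the same way, had 1168 and 1586 (0.44, 1.36-fold). Its other probe sets were higher too, with 478 and 755 (0.66) and with 356 and 751 (1.08). Insig2 was therefore higher in 3 of 3 probe sets, the dimmest of which passed 2-fold. Stard4, which carries cholesterol between membranes, had 858 and 1162 (0.44), and its other probe sets were at 0.08 and 0.87. The median of the 6 regulators was -0.13, while their mean was 0.05, since Insig2 and Stard4 lay far above the rest.

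In the fatty acid branch the 3 enzymes that supply and build the chain were slightly lower in their brightest probe sets. Acly, which makes cytosolic acetyl-CoA from citrate, had signals of 10320 and 9239 (-0.16). Its other kept probe sets were at -0.36 and 0.20. Acaca, the acetyl-CoA carboxylase that commits carbon to the chain, had 1216 and 1028 (-0.24). Fasn, the fatty acid synthase, had 4707 and 4054 (-0.22, 86.1% of control). All 3 were within 0.32 of 0, and Acaca and Fasn rest on 1 kept probe set each. Elovl6, which lengthens the finished chain, had 3793 and 4099 (0.11), and its other probe sets were at 0.49 and -0.48, on either side of 0.

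The desaturases did not move as a block. Scd1, which places the first double bond into saturated chains, had signals of 2714 and 3272 (0.27), and its second probe set was also higher (0.43). Scd2, its close relative, had 10572 and 7973 (-0.41, 1.33-fold lower), the lowest value of the branch. The dimmer probe sets of Scd2 disagreed with this: 1 had 1033 and 1317 (0.35), the other 114 and 198 (0.80). Averaged over its probe sets Scd2 was at 0.25, so its direction depends on the probe set chosen. Fads2, the desaturase that starts the route to long polyunsaturated chains, had 630 and 503 (-0.33), with a second probe set at 0.33. Fads1, the next desaturase of that route, had 1064 and 986 (-0.11). The branch median of -0.19 rests on the brightest probe sets, since it was -0.00033 when the probe sets of each gene were averaged, and 4 of 8 genes then lay below 0.

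**Figure D4:**
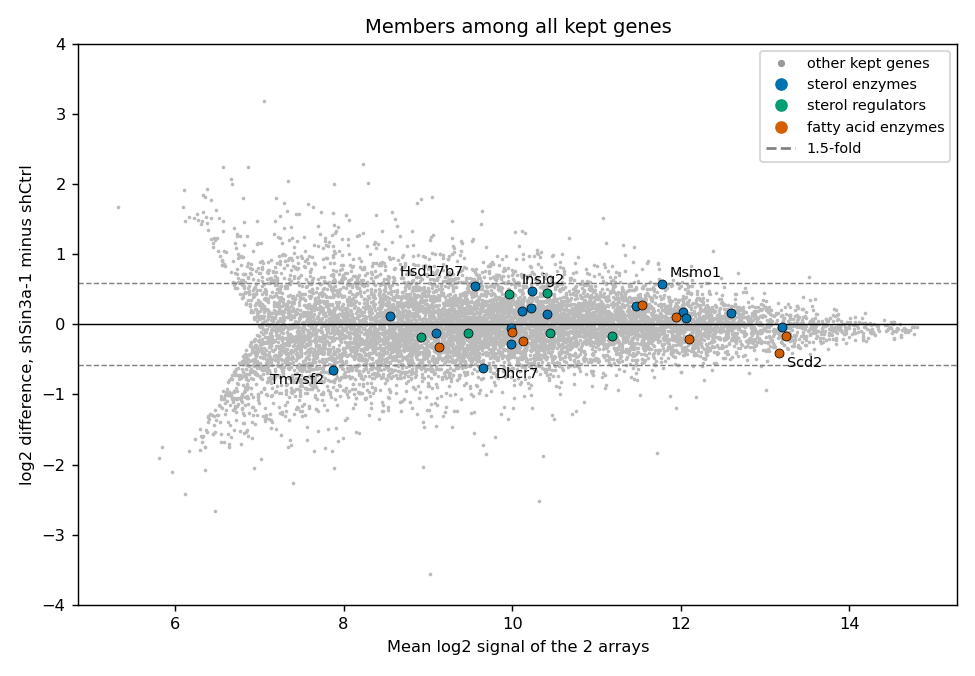
Log2 difference against mean log2 signal for the 9782 genes passing the filter (grey) with the 31 measured pathway genes coloured by branch; dashed lines mark 1.5-fold. The pathway genes lie within the cloud, with Tm7sf2 and Dhcr7 below the lower dashed line and none above the upper.

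**Figure D5:**
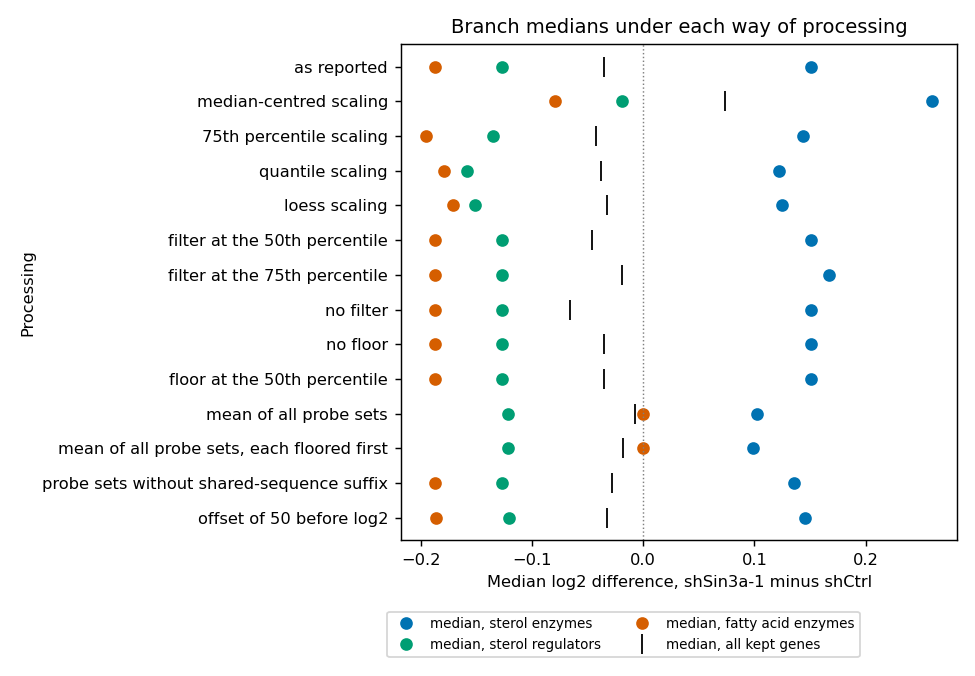
Median log2 difference (shSin3a-1 minus shCtrl) of each branch and of all genes passing the filter, with the processing as reported and under each of 13 alternatives. The sterol enzymes lie above and the regulators below the median of all genes in every row, and the fatty acid enzymes lie below it except in both means of all probe sets.

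Some larger differences lay among other genes of lipid handling. Of 67 such genes listed, 55 had a probe set naming a single gene and 48 passed the filter. Among those of sterol uptake, transport and export 7 passed it, with a median of -0.44; 3 were lower by 1.5-fold, against 9.46% of all genes, and none higher. Their kept probe sets were divided, with 5 of 10 higher and a median of -0.077. Scarb1, a lipoprotein receptor chosen after its values were seen, had 465 and 644 (0.47) and was higher in 3 of 3 probe sets. Apoe, the lipid carrier, had signals of 1466 and 817 (-0.84). Abcg1, a sterol exporter, had 238 and 138 (-0.79), and Npc1, which moves cholesterol out of lysosomes, had 343 and 218 (-0.65). Apoe, Abcg1 and Npc1 had 1 kept probe set each, and Abcg1 and Npc1 were in the dim band where 19.9% of genes were lower by 1.5-fold.

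Of 6 genes of SREBP processing and turnover, Paqr3, a Golgi anchor of the SCAP-SREBP complex, alone passed 1.5-fold, with 455 and 298 (-0.61). Of all genes 9.46% were lower by 1.5-fold, and the median of the 6 was -0.15. In the list of other sterol enzymes 2 genes passed the filter and neither passed 1.5-fold. Ggps1, which makes geranylgeranyl diphosphate, differed most in its brightest probe set (605 and 551, -0.14). Of its 4 kept probe sets 3 were higher, at 0.10, 0.61 and 0.05. Among 24 other genes of fatty acid and lipid synthesis the median was 0.02. Acacb, the mitochondrial acetyl-CoA carboxylase, had 407 and 197 (-1.05), which was past 2-fold, where 4.49% of all genes were. The elongase Elovl7 had 150 and 273 (0.86), past 1.5-fold, where 7.13% of all genes were higher. Its second kept probe set had 55.9 and 302 (2.43), and passed the filter through the shSin3a-1 array alone. Both Acacb and Elovl7 were dim, and 12 of the 24 genes lay above 0.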

How the data were processed

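RNA was amplified from the 3' end, labelled with biotin and hybridized to 1 Affymetrix array per group, per the labels' protocols. The deposited values are linear intensity signals; per the submitters' processing notes, the authors used MAS5 and Affymetrix Expression Console, without stated versions. Both arrays had a trimmed mean of 500 (2% left off at each end) over 45101 probe sets, of which 64 were controls and were left out. Platform annotation gave 34958 probe sets 1 symbol, 932 several and 9211 none; symbols were updated through RefSeq (GRCm38.p6), which matched 34754.

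A gene was measured by its brightest single-symbol probe set (by mean log2 signal over both arrays), as deposited. It was kept if its brighter signal reached the 60th percentile of its array, which left 9782 of 18193 genes. Signals under the 40th percentile (46.8 in shCtrl, 41.7 in shSin3a-1) were set to it. Array medians differed by -0.11 (log2), near background, while the 75th percentiles differed by 0.0077, so the deposited scaling was kept. With 1 array per group, no test was made, and calls are fixed folds. The number of arrays limits the precision. Alternatives were other scalings (median, 75th percentile, quantile, loess), filters, floors, probe sets and an offset. The steps were tested on simulated data. The pathway genes and lists were chosen with earlier results of these data known; all 32 are named, and from each related list the genes past 1.5-fold, up to 3 per direction, or else the most different one. Some listed lipid genes are not analysed here. Python 3.11.15, NumPy 2.4.6, pandas 2.3.3 and statsmodels 0.14.6 were used.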

Additional observations from a re-analysis of the deposited data

How the results depend on the processing

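In every one of 13 alternatives that gave a value, 1 of them added after seeing the data, 23 of the 31 genes kept the direction of their difference, 12 higher and 11 lower. Hmgcs1, Idi1, Fdps, Fdft1, Lss, Ebp, Acly and Scd2 turned in at least 1. A gene with 1 probe set could turn only under another scaling. A kept sign can also lie near 0: with median centring Mvd was at -0.010 and Fads1 at -0.00096. With median-centred scaling the medians were 0.26 for sterol enzymes, -0.019 for regulators and -0.079 for fatty acid enzymes, beside 0.07 for all kept genes. That scaling put 3 genes (Hsd17b7, Msmo1, Sc5d) higher at 1.5-fold and 0 lower, in place of 0 and 2; of all genes it put 10.2% higher and 6.76% lower, so 3 of 31 (9.68%) is near the background. Averaging all probe sets put 2 genes higher at 1.5-fold (Insig2, Sc5d), or 6.67%, against 8.87% of all genes. It took the sterol median to 0.10 and the fatty acid median to -0.00033. The gap between branches, a result chosen after seeing the data, was then 0.10. The Sc5d call rests on a probe set at the floor in shCtrl. With each probe set floored before averaging (the added alternative), 1 gene was higher (Insig2), against 6.51% of all genes. Sc5d was then at 0.30, the fatty acid median again -0.00033 and the gap 0.099. The filter at the 75th percentile left 1 gene lower at 1.5-fold (Dhcr7), as did an offset of 50 before log2 (Dhcr7). Of all genes 5.49% were lower with that filter and 6.95% with the offset. At a threshold of 0.32 (log2) in place of 2-fold, 9 genes were past it, against 39.5% of all genes. Among the 8 alternatives other than filters and floors, 240 values moved by less than the SD between probe sets (0.41). A further 6 moved by more (Lss, Msmo1, Sc5d, Scd2). The 5 filters and floors cannot move a value. Much of the 240 was fixed beforehand. Median centring moves every value by 0.11 and 75th percentile scaling by 0.0077, both less than 0.41. For a gene with 1 probe set, the choice of probe sets changes nothing. The count therefore does not measure how stable the values are. Mvk and Tm7sf2 had no value with the filter at the 75th percentile, Fdps none in the unfloored mean and Msmo1 none without suffixed probe sets. No paired analysis was possible because each group has 1 array.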

Other observations

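Genes of fatty acid oxidation were mostly on the higher side. Of 9 that passed the filter on dim signals 7 lay above 0, with a median log2 difference of 0.25 (0.36 with median centring), against -0.03 for all genes passing it; 11 of their 15 kept probe sets were higher, against 50.3% of all kept probe sets. Cpt1a, which admits long chains into mitochondria, gave 932 with shCtrl and 1560 with shSin3a-1 (0.74, 1.67-fold), and 3 of 3 probe sets were higher, from 0.09. It was the single gene of the list past 1.5-fold, where 7.13% of all genes were higher. Acadl and Acadm, dehydrogenases of long and medium chains chosen after their values were seen, had 1222 and 1643 (0.43) and 5691 and 6773 (0.25). Acaa2 (-0.20) and Acadvl (-0.13) were on the lower side. Whether the oxidation and synthesis genes differ beyond the variation between cultures was not testable with 1 array per group.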
